A study of Arabidopsis thaliana with 2 samples.

Results

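The genes described here are 10 members of the TALE homeobox family of *Arabidopsis*, of 33602 genes in the deposited table. They are the KNOX genes *STM*, *BP* (also *KNAT1*), *KNAT2*, *KNAT3*, *KNAT4*, *KNAT5* and *KNAT6*, and the BELL genes *RPL*, *PNF* and *BEL1*, and each was found in the table by its locus (in that order AT1G62360, AT4G08150, AT1G70510, AT5G25220, AT5G11060, AT4G32040 and AT1G23380, then AT5G02030, AT2G27990 and AT5G41410). The aerial parts of Col-0 (the wild-type) and of the *35S:SsCBF1-11* line were sequenced by RNA-seq, to learn which genes change when *SsCBF1*, a cold-response transcription factor of the nightshade *Solanum lycopersicoides*, is overexpressed in *Arabidopsis*. The transgenic plants are 1 homozygous line in the Col-0 background, with *SsCBF1* behind the CaMV35S promoter, which is active in most tissues. Plants of both genotypes were 4 weeks old and unstressed, kept at 22°C under a cycle of 16 h light and 8 h dark, and 20 plants per genotype were pooled into 1 library. There is thus no replicate check of any difference, and every test below is a comparison of 2 libraries and not of genotypes.

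TALE homeodomain proteins bind DNA as pairs of a KNOX and a BELL protein, and the BELL partner helps the KNOX protein to enter the nucleus. Class I KNOX genes (*STM*, *BP*, *KNAT2* and *KNAT6*) are known for keeping cells of the shoot meristem and the growing stem undifferentiated, in part by raising cytokinin and lowering gibberellin synthesis, and they are silenced in leaves. Class II KNOX genes (*KNAT3*, *KNAT4* and *KNAT5*) are widely expressed in differentiated organs.

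The stretch that codes for the DNA-contacting helix of the homeodomain is shown because it holds codons that differ between the KNOX and the BELL members. It was read from the RefSeq TAIR10.1 genome as the 36 bases (12 codons, 5′ to 3′ on the strand of the gene) that start 1 codon before the run of tryptophan, phenylalanine, isoleucine and asparagine codons, and the capitals mark the 8 codons from tryptophan on.

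*STM*: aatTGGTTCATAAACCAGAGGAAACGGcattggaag (chr1:23058913-23058948, minus strand)
*BP*: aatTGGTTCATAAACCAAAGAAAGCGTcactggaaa (chr4:5148083-5148118, minus strand)
*KNAT2*: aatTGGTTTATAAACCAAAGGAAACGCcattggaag (chr1:26582047-26582082, plus strand)
*KNAT6*: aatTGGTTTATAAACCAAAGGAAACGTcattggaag (chr1:8297565-8297600, minus strand)
*KNAT3*: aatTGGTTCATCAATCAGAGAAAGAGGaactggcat (chr5:8737902-8737937, plus strand)
*KNAT4*: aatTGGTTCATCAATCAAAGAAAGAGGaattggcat (chr5:3512655-3512690, plus strand)
*KNAT5*: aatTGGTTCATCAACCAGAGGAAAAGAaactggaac (chr4:15495826-15495861, plus strand)
*RPL*: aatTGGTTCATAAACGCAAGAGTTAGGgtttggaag (chr5:398333-398368, plus strand)
*PNF*: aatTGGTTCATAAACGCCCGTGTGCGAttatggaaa (chr2:11921843-11921878, minus strand)
*BEL1*: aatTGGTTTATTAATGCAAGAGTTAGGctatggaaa (chr5:16583252-16583287, plus strand)

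After the asparagine codon, all 7 KNOX genes carry a glutamine codon (CAA or CAG) and all 3 BELL genes an alanine codon (GCA or GCC). *KNAT2* and *KNAT6* differ at 1 of the 36 bases and *KNAT3* and *KNAT4* at 2, whereas *STM* differs from *BEL1* at 14. The number of differing bases does not divide KNOX from BELL genes, since *KNAT2* and *KNAT3* differ at 12 and *STM* and *RPL* at 10. The longest stretch that the transcripts of any 2 members share without a mismatch is 41 bases, in *KNAT2* with *KNAT6* and in *KNAT3* with *KNAT4*. How reads with more than 1 matching gene were counted is not given in the sources used here, so the division of reads within these pairs is uncertain. None of the 10 genes overlaps another gene in the TAIR10.1 annotation.

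Summed over genes, the Col-0 library holds 9120358 deposited reads and the transgenic one 6669454. The SsCBF1 transgene was not analysed here, and *COR15A*, a known CBF target, had 111 reads in Col-0 against 2782 in the transgenic line. Calls required an adjusted p under 0.001 (two-sided exact binomial test over the 22319 genes with reads, Benjamini-Hochberg adjustment) and a fold above 2, with 0.5 reads added to each count. Ratios are of reads over the library totals, with exact (Clopper-Pearson) 95% intervals that cover counting error only. Leaf genes (8 listed, among them *RBCS1A* and *LHCB1.1*) had 13304 reads or more in each library. Of 6 root markers, 4 had no read in either library and *WOX5* and *COBL9* had 3 reads in all.

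The 4 class I KNOX genes had the lowest ratios of the 10 members, but counting error does not settle this order for all of them. The ratio of *KNAT2* divided by that of *PNF* was 0.927 (0.177 to 4.08), and *STM* and *RPL* did not differ beyond counting error. With 1 read added to each count, *PNF* (log2 ratio -0.821) stood below *KNAT2* (-0.812). *STM* and *BP* were called lower in *35S:SsCBF1-11*, which makes 2 of the 10 members, and no member was called higher. Over all genes tested, 0.838% were called lower and 0.533% higher (187 and 119 genes; 141 and 136 with DESeq2's size factors). At an unadjusted p under 0.05 (exact binomial test), 5 members were lower and 0 higher, where 13.5% of all genes tested were lower and 7.71% higher. All 10 members had a log2 ratio below 0, as had 58.6% of all genes with at least 10 reads, and the median log2 ratio was -0.81 over the members and -0.07 over those genes. Without regard to p, 3 of the 10 members were past 2-fold lower, against 5.14% of genes with at least 10 reads. The adjusted p alone, at any fold, was passed by 3 members that were lower, against 3.21% of genes tested. In pooled aerial parts, fewer cells that express a gene and less RNA per cell cannot be told apart.

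**Figure D1:**
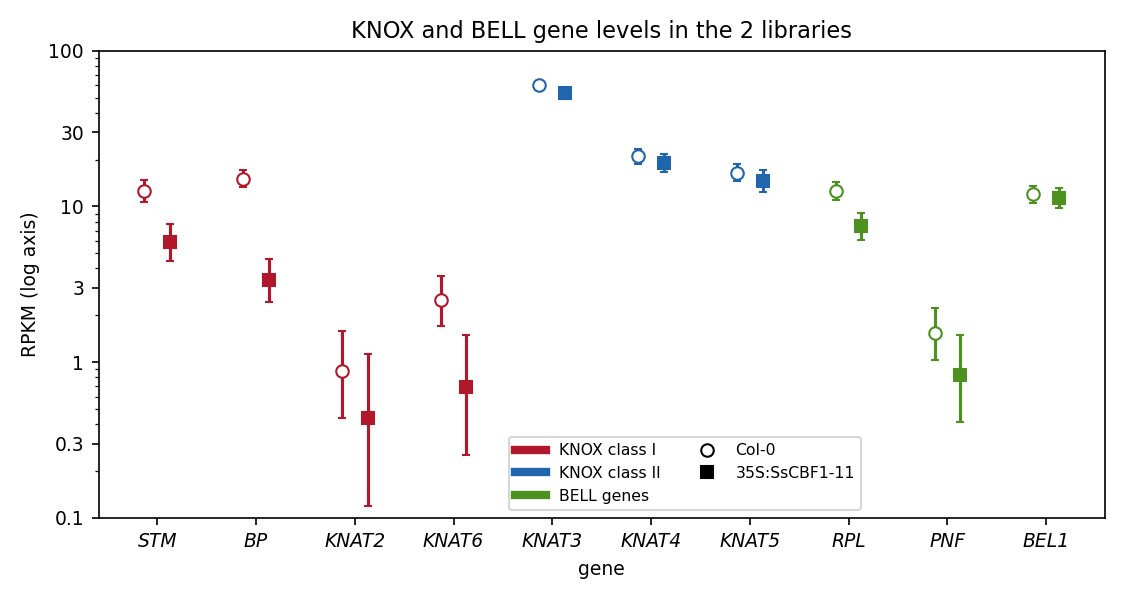
Level of each member in RPKM (reads scaled to the listed gene length and the library total; log axis) in Col-0 (open circles) and *35S:SsCBF1-11* (filled squares), with exact Poisson 95% intervals of the reads, 1 library each. *BP* stands at 15.04 and 3.37 RPKM, while the *BEL1* intervals (11.97 and 11.4 RPKM) overlap.

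*BP*, which shapes internodes and pedicels and keeps stem tissue from differentiating early, had 250 reads in Col-0 against 41 in the transgenic line. The gene is on chromosome 4, minus strand (TAIR10.1, 5147699 to 5151159), and has 5 exons in the counted model. It was 4.46-fold lower (interval 3.20 to 6.37; adjusted p = 4.74e-23, exact binomial test). Of the 6374 genes with at least as many reads as *BP*, *BP* included, only 5 had a log2 ratio as low or lower.

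*STM* is required to form and maintain the shoot meristem. It had 157 reads in Col-0 against 54 in the transgenic line, and has 4 exons on chromosome 1, minus strand (23058582 to 23062063). The ratio was 2.13-fold lower (1.55 to 2.95; adjusted p = 1.64e-05, exact binomial test), close to the fold threshold, and its interval reaches below 2-fold. Of 7943 genes with at least as many reads, 47 had a log2 ratio as low or lower.

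*KNAT6* acts with *STM* in the meristem and at organ boundaries (chromosome 1, 8297241 to 8302651). It had 30 reads in Col-0 against 6 in the transgenic line, a ratio 3.66-fold lower (1.5 to 10.7). Its adjusted p of 0.020 (exact binomial test) missed the threshold. *KNAT2*, its closest relative, which is expressed in the vegetative meristem and the carpels (chromosome 1, 26576486 to 26582879), had 11 and 4 reads. Its interval, from 0.115 to 1.68 of the Col-0 value, is too wide to tell a decrease from no difference at this depth. Summed over the 4 class I genes, the reads went from 448 to 105, a 3.12-fold decrease (2.52 to 3.90), and without *BP* from 198 to 64 (2.26-fold, 1.7 to 3.05).

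The class II genes stood close to 1 in ratio. *KNAT3*, the most abundant member, had 1046 reads in Col-0 against 674 in the transgenic line, with a ratio of 0.881 (0.799 to 0.972; adjusted p = 0.078, exact binomial test). *KNAT4* had 346 and 230 reads (ratio 0.909, 0.766 to 1.08), and *KNAT5* had 235 and 152 (0.885, 0.716 to 1.09). None of the 3 was called, with 1 lower (*KNAT3*) and 0 higher at an unadjusted p under 0.05 (exact binomial test; 13.5% and 7.71% of all genes), and their intervals leave room for decreases of at most 1.25-fold, 1.31-fold and 1.40-fold. *KNAT3* lies on chromosome 5 (8735944 to 8738601), as does *KNAT4* (3509833 to 3513741), and *KNAT5* on chromosome 4 (15493989 to 15496381).

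The BELL genes were not alike. *RPL* (also *PENNYWISE*), a partner of *STM* and *BP* in the inflorescence stem and the fruit, had 231 reads in Col-0 against 100 in the transgenic line (chromosome 5, 395567 to 399125). It was 1.69-fold lower (1.33 to 2.16), with an adjusted p of 1.66e-04 (exact binomial test) but below the fold threshold. *PNF*, which acts together with *RPL* in the change of the meristem to flowering, had 28 and 11 reads (chromosome 2, 11921350 to 11924748), with a ratio of 0.537 (0.241 to 1.11). *BEL1*, known for its role in the integuments of the ovule, had 268 and 186 reads (chromosome 5, 16579936 to 16584077), with a ratio of 0.949 (0.783 to 1.15). *BEL1* was thus well counted in these aerial parts, and the ratio of the libraries was within counting error of 1.

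**Figure D2:**
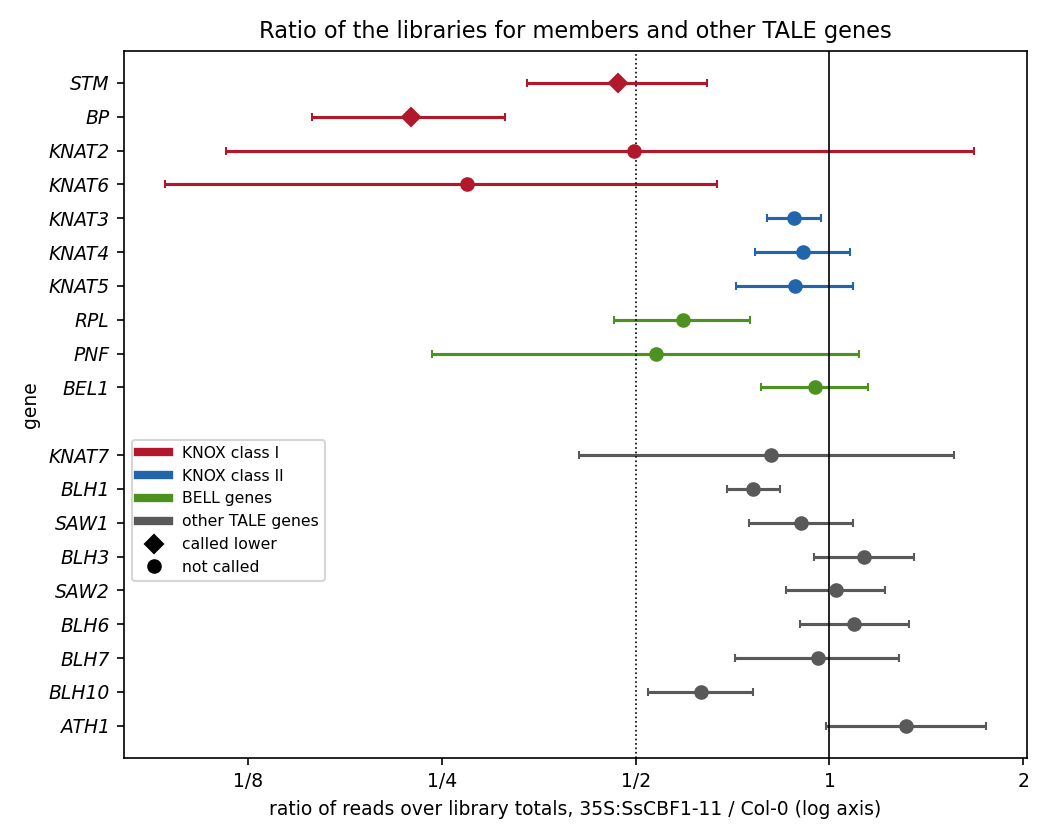
Ratio of reads over library totals, *35S:SsCBF1-11* over Col-0 (log axis), with exact 95% counting intervals, for the 10 members and the other TALE genes with at least 10 reads; diamonds mark genes called lower and the dotted line 2-fold lower. The intervals of *STM*, *BP* and *KNAT6* lie wholly below those of *KNAT3* and *BEL1*.

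To compare members with each other whatever the scaling of the libraries, the ratio of one gene was divided by that of another, since the library totals then cancel. Of the 45 pairs of members, the exact conditional 95% interval left out 1 in 18. *BP* decreased 3.93-fold more than *KNAT3* (2.77 to 5.69), 4.22-fold more than *BEL1* (2.86 to 6.34), 2.64-fold more than *RPL* (1.73 to 4.06) and 2.09-fold more than *STM* (1.30 to 3.39). *STM* decreased 1.87-fold more than *KNAT3* (1.34 to 2.64), and differed from *RPL* by no more than counting error (1.26-fold, 0.840 to 1.90). *RPL* in turn decreased 1.60-fold more than *BEL1* (1.18 to 2.19). Of the 12 pairs of a class I and a class II gene, 9 had an interval that left out 1, and the 3 others were those with *KNAT2*. No pair within class II did. Of the 12 pairs of a class I and a BELL gene, only 4 had such an interval (*STM*, *BP* and *KNAT6* with *BEL1*, and *BP* with *RPL*). Summed by class, class I decreased 2.77-fold more than class II (2.20 to 3.51) and 2.40-fold more than the BELL genes (1.85 to 3.14). The BELL genes and class II differed by 1.15-fold, with an interval of 0.977 to 1.36 that holds 1. These intervals are not adjusted for the number of pairs.

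The order of the levels, compared per length in RPKM, changed between the libraries. In Col-0, *KNAT3* was highest with 60.4 RPKM, followed by *KNAT4* (20.96) and *KNAT5* (16.5). *BP* (15.04), *STM* (12.6), *RPL* (12.6) and *BEL1* (11.97) came next. Neighbours from *KNAT5* down to *BEL1* did not differ beyond counting error in Col-0. *KNAT6* (2.52), *PNF* (1.54) and *KNAT2* (0.882) were lowest, and neighbours among these did not differ either. In *35S:SsCBF1-11*, *KNAT3* (53.2 RPKM), *KNAT4* (19.05) and *KNAT5* (14.6) kept their places, and *BEL1* (11.4) stood above *RPL* (7.43), *STM* (5.94) and *BP* (3.37). There, *BEL1* exceeded *RPL* by 1.53-fold (1.19 to 1.97) and *STM* exceeded *BP* by 1.76-fold (1.15 to 2.71), while *RPL* and *STM* did not differ beyond counting error. *BP* thus moved from rank 4 to rank 7 of the 10. The class I genes made up 20.05% of the members' summed RPKM in Col-0 and 8.93% in *35S:SsCBF1-11*, class II 63.1% and 74.3%, and the BELL genes 16.8% in each. The listed gene lengths are shorter than the TAIR10.1 transcripts of the same models for 9 of the 10 genes. With the TAIR10.1 lengths, *KNAT5* stood above *KNAT4* in both libraries, and the rank of *BP* was again 4 and 7.

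**Figure D3:**
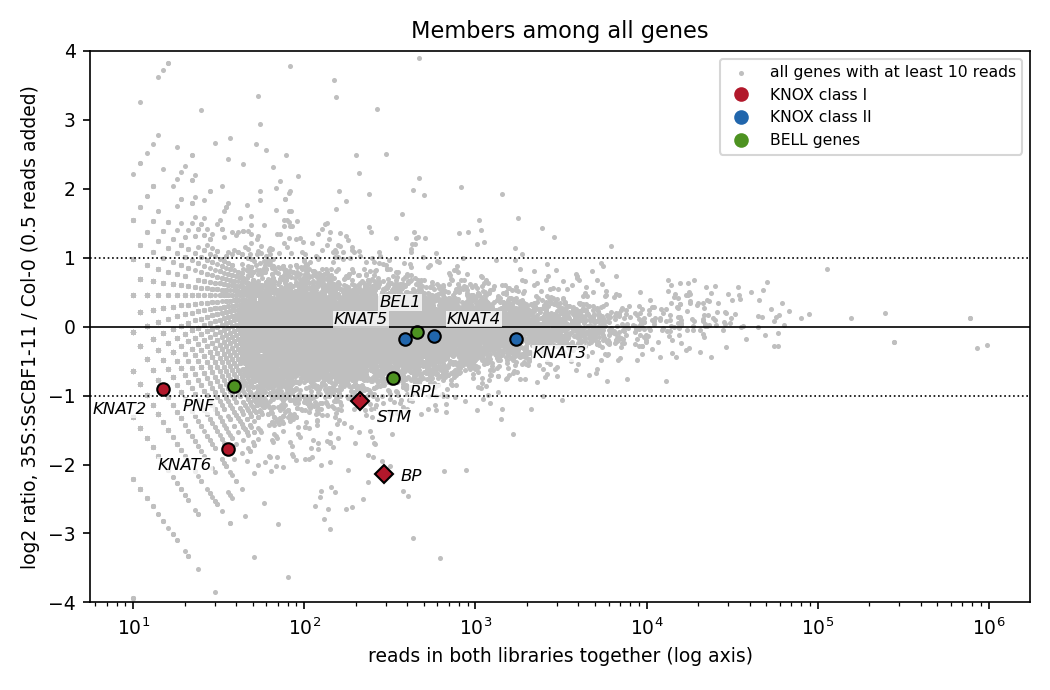
Log2 ratio of *35S:SsCBF1-11* over Col-0 (0.5 reads added) against the reads of both libraries together (log axis) for the 18443 genes with at least 10 reads, of which 48 lie outside the plotted range. *BP* and *STM* (diamonds, called lower) lie at -2.14 and -1.08, and *KNAT3*, *KNAT4*, *KNAT5* and *BEL1* near 0.

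As a set, the rest of the TALE family decreased less than class I. Of 12 other TALE genes, 11 had reads, and none was called in either direction. At an unadjusted p under 0.05 (exact binomial test) 2 were lower and 0 higher, a share near the 13.5% of all genes that were lower. Their median log2 ratio was -0.06 over the 9 genes with at least 10 reads, a sign that turns with TMM and with DESeq2's size factors. *BLH1* (1247 and 695 reads) and *BLH10* (366 and 169) were the 2, at 1.31-fold (1.19 to 1.44) and 1.58-fold lower (1.32 to 1.91). Both passed the adjusted p (2.65e-07 and 1.26e-05, exact binomial test) but not the fold threshold. Of all genes tested, 3.21% were lower and passed the adjusted p at any fold. *ATH1*, a BELL gene of the vegetative meristem that restrains stem growth, had 103 and 99 reads. Its ratio was 1.31, with an interval (0.987 to 1.75) that holds 1. *SAW1* (292 and 193 reads) and *SAW2* (298 and 223), BELL genes that limit *BP* in leaf margins, had ratios of 0.904 (0.75 to 1.09) and 1.02 (0.856 to 1.22). *KNAT7*, a KNOX gene of the secondary wall, had 27 and 16 reads, and *KNATM*, which lacks a homeodomain, had none. As a sum, class I decreased 2.73-fold more than these 12 genes (2.18 to 3.43).

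Genes that keep class I KNOX genes silent in leaves were not called in either direction. Of 11 such genes, 2 were lower and 0 higher at an unadjusted p under 0.05 (exact binomial test), again near the 13.5% of all genes, and the median log2 ratio was -0.10. *AS1*, the MYB protein that represses *BP* together with *AS2*, had 430 reads in Col-0 against 218 in the transgenic line (1.44-fold lower, 1.22 to 1.71; adjusted p = 1.71e-04, exact binomial test), below the fold threshold. *AS2* had 57 and 38 reads (ratio 0.912, 0.588 to 1.40). The Polycomb gene *SWN* had 179 and 93 reads and *CLF* 54 and 39, with ratios of 0.710 (0.547 to 0.918) and 0.988 (0.637 to 1.52). The YABBY gene *YAB3* had 231 and 153 reads (0.906, 0.733 to 1.12). Of 5 genes of the ovate family, whose products bind KNOX and BELL proteins, none was called and none passed an unadjusted p of 0.05 (exact binomial test), and 4 had reads, with *OFP1* at 39 and 27.

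Of 14 genes of gibberellin and cytokinin metabolism and response known downstream of class I KNOX proteins, none was called, with 1 lower and 0 higher at an unadjusted p under 0.05 (exact binomial test), a smaller share than the 13.5% of all genes that were lower. *GA20ox1*, a gibberellin synthesis gene that KNOX proteins repress, was that gene, with 50 and 19 reads (1.92-fold lower, 1.11 to 3.46; adjusted p = 0.098). *ARR7* and *IPT3*, of cytokinin response and synthesis, had 150 and 124 reads (ratio 1.13, 0.884 to 1.44) and 148 and 107 (0.989, 0.764 to 1.28). *IPT7*, which *STM* activates, had 4 and 1 reads, too few to compare.

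Of 10 boundary and meristem genes, none was called, with 2 lower and 1 higher at an unadjusted p under 0.05 (exact binomial test), near the 13.5% and 7.71% of all genes. *CLV1*, a receptor kinase that limits the meristem, had 253 and 234 reads (ratio 1.26, 1.05 to 1.52), above 1 where *STM* was below it. *AGO10* had 142 and 64 reads (1.62-fold lower, 1.20 to 2.22; adjusted p = 0.013). The stem cell genes *WUS* and *CLV3* had at most 1 read, and *CUC1*, *CUC2*, *CUC3* and *LAS*, of organ boundaries, had 10 reads or fewer in each library. In that order they had 4 and 1, 6 and 1, 10 and 1, and 4 and 0 reads in Col-0 and the transgenic line. These are raw reads, and the transgenic library is smaller than that of Col-0. The boundary genes were named after their values were seen. *CUC3* was, with *AGO10*, lower at the unadjusted p (7.31-fold, 1.04 to 317), and the intervals of the others hold 1. Of 12 inflorescence and fruit genes that act with *RPL*, *PNF* and *BP*, *FUL* was called lower (98 and 29 reads; 2.47-fold, 1.62 to 3.88) and none was called higher. At an unadjusted p under 0.05 (exact binomial test) 3 of the 12 were lower and 1 higher, against 13.5% and 7.71% of all genes. Beside *FUL*, the lower genes were *AP1* (30 and 9 reads, 2.44-fold, 1.13 to 5.84) and *SPL3* (67 and 29 reads, 1.69-fold, 1.08 to 2.71). The higher one was *SHP1*, a fruit gene, with a ratio that did not reach 2-fold, from 307 and 342 reads (ratio 1.52, 1.30 to 1.78).

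**Figure D4:**
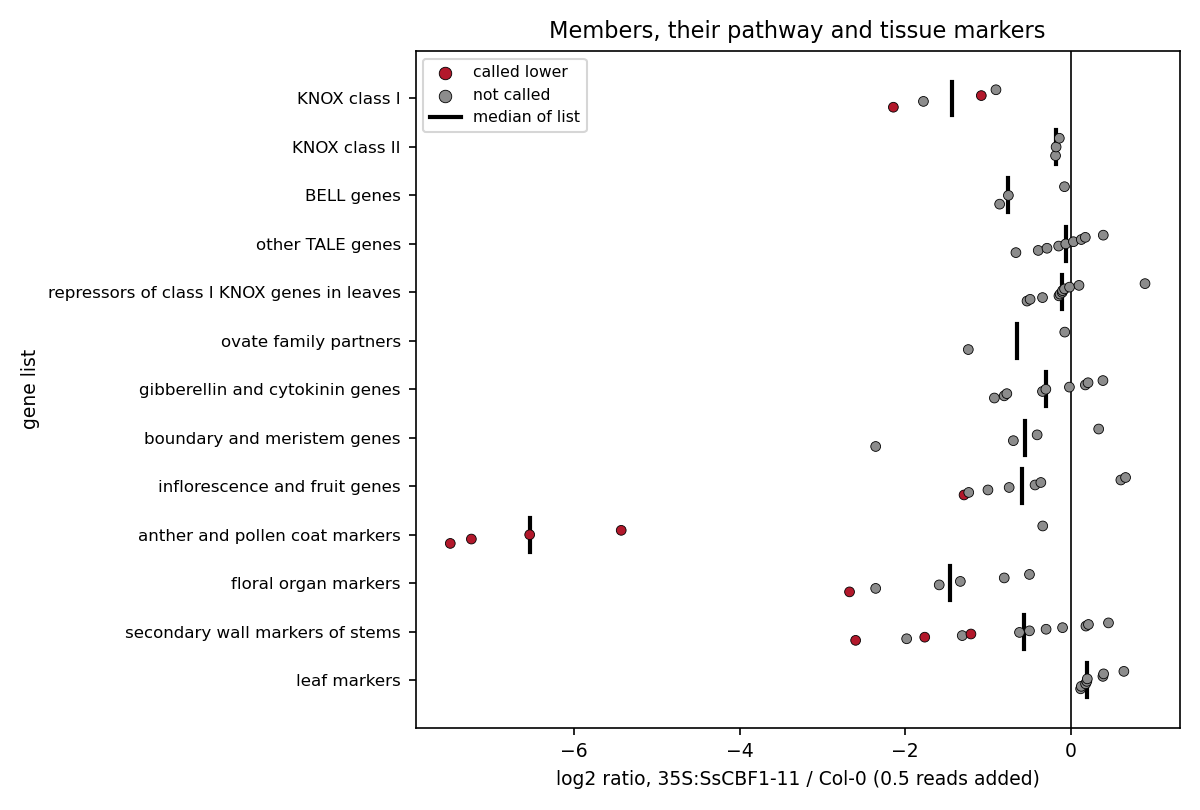
Log2 ratio of *35S:SsCBF1-11* over Col-0 (0.5 reads added) of each gene with at least 10 reads, by gene list; red points were called lower and the bars are the list medians, -1.43 for class I and -0.06 for the other TALE genes. Anther genes below -5 have 0 reads in *35S:SsCBF1-11*, so that their position depends on the added 0.5 reads.

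Anther markers and some markers of floral organs and stems were lower, as *BP* and *STM* were, and other stem markers were not. These lists were chosen with earlier results of these data known, so their counts are not an independent result. Over all genes tested, 0.838% were called lower and 0.533% higher. Of 9 anther and pollen coat markers, 4 were called lower, and the summed level went from 30.97 to 0.390 RPKM. In *35S:SsCBF1-11*, 8 of the 9 had 0 reads, as had 12672 of the 33602 genes in the table. Among the 8, *MS1* had no read in Col-0 either, and *DYT1* had 1 read there. The called genes *GRP17*, *ATA27*, *GRP19* and *ATA7* had 123, 103, 63 and 29 reads in Col-0 and none in the transgenic line. Of 6 floral organ markers, *PI* was called lower (30 and 3 reads), a call that is lost with TMM, with DESeq2's size factors and with the upper quartile, and the sum went from 12.6 to 4.57 RPKM. At an unadjusted p under 0.05 (exact binomial test) 3 of the 6 were lower and 0 higher, against 13.5% and 7.71% of all genes. Of 14 secondary wall markers of stems, *FLA11*, *FLA12* and *LAC4* were called lower and none higher, while the sum went from 532 to 517 RPKM. Most of that sum came from the lignin enzymes *CCoAOMT1* (203 and 236 RPKM) and *CAD4* (181 and 148 RPKM). At an unadjusted p under 0.05 (exact binomial test) 7 of the 14 were lower and 2 higher, beside the same shares of all genes. The 2 were *CAD5* (479 and 481 reads; ratio 1.37, 1.21 to 1.56) and *CCoAOMT1* (2025 and 1719 reads; ratio 1.16, 1.09 to 1.24), which passed the adjusted p but not the fold threshold. *FLA12* had 103 and 12 reads (6.28-fold lower, 3.44 to 12.5) and *FLA11* 124 and 39 (2.33-fold, 1.61 to 3.42), on either side of the decrease of *BP*. All 8 leaf markers had ratios above 1, from 1.09 to 1.56. The part of these tissues in the decrease of the class I genes was not tested. Plants of the 2 genotypes had the same age when harvested, and developmental stage and genotype cannot be told apart.

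The motif that CBF proteins bind (ACCGAC or GCCGAC, searched on both strands) occurred in the 1000 bases before the annotated start of 3 of the 10 members, against 22.2% of 26711 protein-coding genes. *STM* and *BP*, the called members, were among those without a match in this window. The bearing of the motif on the calls was not tested. The matches are shown to give their place before the genes that have them. Each is given on the strand of its gene, with the motif or its reverse complement in capitals.

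*KNAT2*: agcctagtaggtGTCGGCcaccgtaattga (chr1:26575934-26575963, plus strand)
*KNAT5*: tattggtgggttGTCGGCgtgttcatggaa (chr4:15493583-15493612, plus strand)
*PNF*: tcgtggaaaaaaACCGACaaaatagatttt (chr2:11924806-11924835, minus strand)

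The site of *PNF* begins 75 bases before the annotated start, that of *KNAT5* 394 and that of *KNAT2* 540 bases. None of these 3 genes was called in either direction, where 0.838% of all genes tested were called lower and 0.533% higher.

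The calls depend on how much pools of the same genotype vary, which 1 library each cannot show. When pools were assumed to vary with a coefficient of variation of 0.1 (edgeR's exact test), *BP* was called and *STM* was not (adjusted p = 0.028). With 0.2, neither was called, and the adjusted p of *BP* was 0.0037.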

How the data were processed

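RNA from the pooled aerial parts of 20 plants per genotype was sequenced on an Illumina HiSeq system, 1 library each. The submitters' processing notes name TAIR10 and CASAVA 1.7. For the aligner, the counting rule and strandedness, a statement was not found in the labels or methods. The authors deposited the count of reads per gene, unnormalized, and RPKM values, which match reads divided by listed length and column total (relative tolerance 1e-06). Their columns of folds, log2 folds and q-values, and the pathway and Gene Ontology tables of their called genes, were not used.

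Depth is 9120358 and 6669454 reads. With 1 library per genotype the spread between replicates could not be estimated, so the counts of 22319 genes with at least 1 read were compared with the library totals by an exact binomial test, two-sided, with Benjamini-Hochberg adjustment over all of them. Intervals (95%) cover counting error only, and reads are not independent molecules. The members and gene lists were chosen with earlier results of these data known. All members are named, and of each list of pathway genes the called genes and up to 3 others with the most reads. Further genes (*SAW1*, *ATH1*, *KNAT7*, *KNATM*, *AS2*, *CLF*, *GA20ox1*, *IPT7*, *AP1*, *WUS*, *CLV3*, *LAS* and the *CUC* genes) were chosen after their values were seen. Of the tissue marker lists, the called genes are named, and *CCoAOMT1*, *CAD4*, *CAD5*, *RBCS1A*, *LHCB1.1*, *WOX5*, *COBL9*, *MS1* and *DYT1* were chosen after their values were seen. All 117 listed loci matched the RefSeq TAIR10.1 annotation (32835 of 33602 loci matched). Its nuclear genome gave positions and sequences. Alternatives were TMM (edgeR 4.0.16), size factors (DESeq2 1.42.0), the upper quartile, totals without the 10 most abundant genes or of nuclear protein-coding genes, a minimum of 10 reads, other pseudocounts and thresholds, and the exact test of edgeR at assumed coefficients of variation (0.1, 0.2 and 0.4). Python 3.11.15, scipy 1.17.1 and R 4.3.3 were used, and the procedure was tested on simulated data.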

Additional observations from a re-analysis of the deposited data

How the results depend on the processing

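The calls on *STM* and *BP* held under the 5 other scalings, the 10-read minimum and both other pseudocounts, with 2 members lower and 0 higher in each. *STM* came closest to the 2-fold threshold with DESeq2's size factors, at a log2 ratio of -1.01. No member reversed its direction, although *BEL1* came to a log2 ratio of -0.0071 with TMM and -0.0013 with DESeq2's size factors. Over the 5 other scalings the median log2 ratio of the members stayed between -0.84 and -0.73, and the median of all genes with at least 10 reads between -0.11 and 0.00049. Over all genes, the share of higher genes among those called was 38.9% with the totals, 48.2% with TMM and 49.1% with DESeq2's size factors. At a fold threshold of 1.5, 232 genes were higher and 409 lower over the whole table, and *RPL* was called as well. Outside the members, 1 other TALE gene (*BLH10*) was then called lower. At that threshold 1 inflorescence and fruit gene (*SHP1*) and 1 leaf marker (*LHCB1.1*) were called higher. At an adjusted p under 0.05, 189 were higher and 413 lower, and *KNAT6* was called as well. When edgeR's exact test assumed a coefficient of variation of 0.1, 64 genes were higher and 82 lower, and 1 member, *BP*, was lower. With 0.2, the counts were 18 and 21, and with 0.4 they were 2 and 0, with 0 members called in both. These losses follow from the larger variance assumed. The call on *PI* was lost with TMM, DESeq2's size factors and the upper quartile. The level per TAIR10.1 transcript length was added after seeing the data. No paired analysis was possible because each genotype has 1 library. *KNAT2*, *KNAT6* and *PNF*, with at most 30 reads in a library, are limited by depth.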
